A study of Mus musculus with 9 samples.

Results

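Normal ageing of the mouse hippocampus was read from 3 of the 9 two-colour arrays of the series, those that hybridised a wild-type (WT) mouse of 12 months against a WT mouse of 3 months. Each array was centred on the median of its listed log2 ratios, and a probe entered if at least 2 of the 3 arrays listed it, which held for 14749 of 29922 probes; 9681 of 16637 named genes had such values. All of these mice were female, of the strain given as 129SV with C57BL6, carried no transgene per their labels and gave 1 hippocampus each, whose RNA was linearly amplified. The other 6 arrays compared 3xTG mice, which over-express mutant APP and PS1 and have phosphorylated tau per the series title, with WT mice of 3 or of 12 months. They entered the fit through the spread, the dye term and the WT mice also hybridised there, and so bear on the fitted ratios and on the ranking by p, not on the array values.

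There were 2 mice in each age group, so the 3 arrays are not 3 independent pairs. Replicate 1 set mouse 25 (12 months, Cy5) against mouse 15 (3 months, Cy3), replicate 2 set mouse 24 (Cy3) against mouse 16 (Cy5), and replicate 3 set mouse 25 (Cy3) against mouse 16 (Cy5). Replicates 1 and 2 thus shared no mouse and had opposite dyes, and replicates 2 and 3 shared mouse 16 and the dye orientation. Values below are given for replicates 1, 2 and 3 in that order, as log2 of 12 over 3 months relative to the array median, and the SD is over arrays. The direction was taken from the labels' naming of sample and reference. A ratio holds no level, so the labelled tissue could not be checked against the level of its markers. In bulk tissue, fewer cells of a type and less RNA per cell cannot be told apart.

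The hippocampus holds dentate granule cells, pyramidal cells of the CA fields and interneurons, together with astrocytes, oligodendrocytes, microglia and vessels, and it lays down new memories. Ageing of rodent hippocampus is known for raised immune and glial transcripts, for a steep loss of neurogenesis and, in many accounts, for lower mitochondrial and synaptic transcripts. Between 3 and 12 months a mouse passes from young adulthood to middle age, so the comparison covers an early stretch of that course.

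The deposited ratios were mostly positive before centring. The arrays listed 13937, 16191 and 14553 probes, with medians of 1.42, 2.34 and 1.96, and 74.4, 87.3 and 81.1% of the listed ratios were above 0. No ratio between -0.5 and 0.5 was listed. After centring, the empty stretch ran from -1.92 to -0.92 on replicate 1, from -2.84 to -1.84 on replicate 2 and from -2.46 to -1.46 on replicate 3, so a gene moderately below the array median is missing from the table more often than its mirror image above it. A value near 0 on the centred scale therefore stands for a deposited ratio clearly above 0. Genes that encode abundant proteins of ribosome, proteasome, respiratory chain and glycolysis had centred medians of -0.38, -0.50 and -0.82. Olfactory, vomeronasal and taste receptors and keratins, families with little expected use in hippocampus, had 0.18, 0.50 and 0.17. The part of signal strength in these values was not tested.

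**Figure D1:**
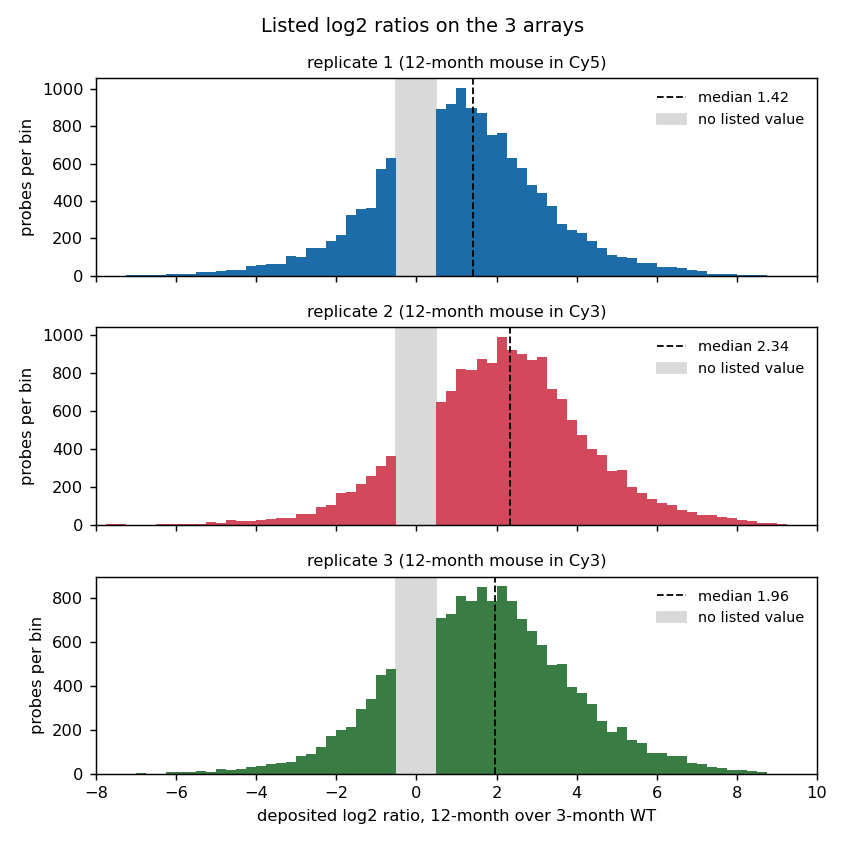
Histograms of the deposited log2 ratios on the 3 arrays (x axis: log2 of 12 over 3 months, before centring; y axis: probes per bin). The dashed line is the array median (1.42, 2.34 and 1.96), and the grey band from -0.5 to 0.5 holds no listed value.

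No single transcript passed the test. limma called 0 of 14749 probes, 0% of those tested, the smallest adjusted p being 0.746, and 0 of 9681 genes (0%), the smallest adjusted p being 0.253. At an unadjusted p under 0.05 stood 925 probes (6.27%), of which 175 (1.19%) lay above and 750 (5.09%) below the array median, and 1088 genes (11.2%), of which 228 (2.36%) lay above and 860 (8.88%) below. Without centring the same threshold gave 1945 probes above and 60 below 0, and centring on the abundant transcripts gave 398 above and 461 below, so the balance of directions moved with the centring. All values that follow are descriptions of single genes and families, none of which passed.

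Agreement between the arrays was weak. Across probes listed on both arrays of a pair, Pearson's r was 0.197 for replicates 1 and 2 (7728 probes), 0.201 for replicates 1 and 3, which share a 12-month mouse (7029 probes), and 0.276 for replicates 2 and 3, which share a 3-month mouse and the dye orientation (8158 probes). Probes are not independent replicates, and these values are given without p. In the same pairs 56.7, 56.9 and 59.1% of probes lay on the same side of both array medians. Among the 4083 probes listed on all 3 arrays, 669 (16.4%) lay above all 3 medians and 908 (22.2%) below all 3. By a log2 of 1 or more, 151 lay above on all 3 arrays and 460 below. Centred on abundant transcripts, 1277 lay above 0 and 597 below on all 3 arrays, with 369 and 407 by a log2 of 1 or more. Without centring 1672 lay above 0 and 167 below by as much, so this balance too moved with the centring. The median SD over the 3 arrays was 1.36, against a median absolute mean of 0.96, so for a typical probe the arrays differed among themselves by more than the average ratio.

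**Figure D2:**
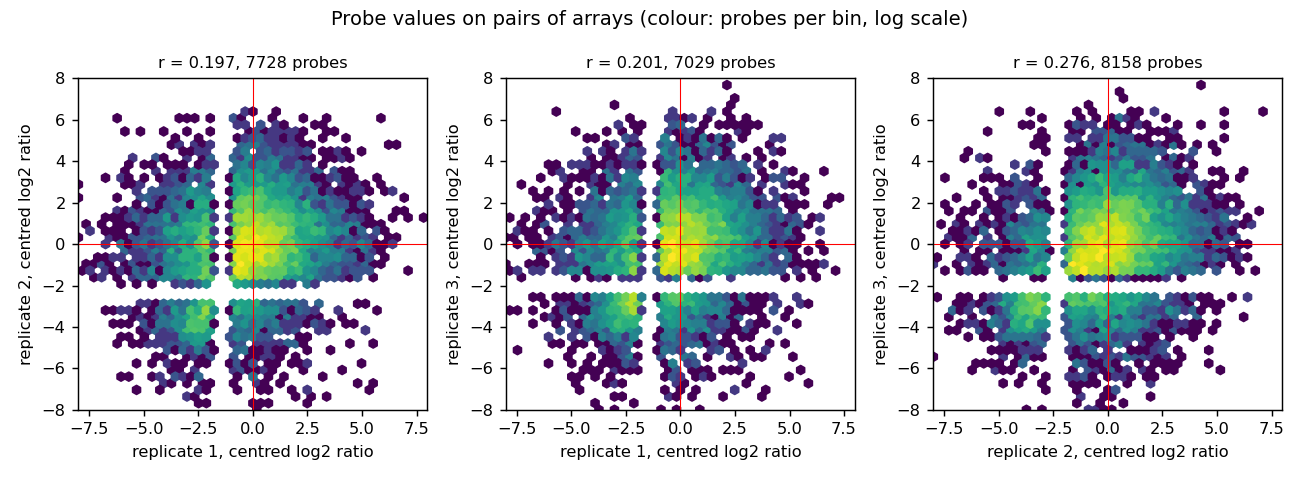
Centred log2 ratios of each probe on pairs of arrays, one panel per pair of replicates (colour: probes per bin on a log scale, red lines: array medians, axes cut at -8 and 8). White bands are the ratios of which none is listed, and the clouds are broad, with r of 0.197, 0.201 and 0.276 over 7728, 7029 and 8158 probes.

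Probes of the same gene agreed less than arrays did. For genes with 2 listed probes on an array, the correlation between the pair was 0.086 on replicate 1 (878 genes), 0.038 on replicate 2 (1100 genes) and 0.019 on replicate 3 (947 genes), and 51.3, 49.3 and 51.3% of pairs lay on one side of the median. The mean over arrays of each probe gave 0.138 over 933 genes. Whether a value that repeats on 3 arrays belongs to the probe or to its gene was not tested, and most genes below rest on a single probe.

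Single probes were picked by rank of p from those that had 1 gene symbol and kept one sign on all 3 arrays, which gave 17 above and 22 below. Of the 21 further probes listed for these genes, 14 had a mean on the same side and 7 on the other.

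The probes described are grouped here by what their genes do, a grouping made after their values were seen, and the first are genes of transcription and chromatin. Brd2, a bromodomain protein that reads acetylated histones, lay at -4.42, -4.98 and -5.94, and a second Brd2 probe listed on replicates 1 and 3 lay at -3.05 and -3.72. Smarcd2, a subunit of the SWI/SNF remodelling complex, lay at -4.10, -4.61 and -4.48. Klf13, a zinc finger transcription factor, lay at -5.93, -6.34 and -4.54, the lowest fitted value after Vav2 among these probes (-5.91 ± 1.17, SE). The 3 arrays agreed closely for Smarcd2 and less so for the other genes. Ubtf, which drives transcription of ribosomal RNA genes, lay at -3.91, -4.82 and -3.75 with the probe described, but its other probes had means of -2.18 and 0.55. Ldb1, a LIM domain binding cofactor, lay at -5.12, -3.43 and -2.86, and Hic2, a transcriptional repressor, at -3.76, -5.89 and -4.23. On the opposite side were Neurod1, a transcription factor of neuronal differentiation (4.04, 1.49 and 1.26), and Crebbp, the histone acetyltransferase that binds CREB (4.58, 2.63 and 3.28). A second Crebbp probe was listed on replicate 1 alone at -0.86, and another lay at 0.10 and 1.88 on replicates 1 and 3.

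Meg3, an imprinted non-coding RNA that neurons make in quantity, lay at -3.94, -4.43 and -3.95, and limma fitted -4.12 ± 0.85 (SE) with an adjusted p of 0.746. Its deposited ratios were -2.53, -2.09 and -1.995, so its probe was also 1 of the 377 of 4083 that lay below 0 on all 3 arrays before centring. The same held for all 22 probes described below the median. The spread of 0.28 (SD, n = 3) is small against the median of 1.36 over all 4083 probes listed on 3 arrays, of mixed sign or not. The pick by one sign and small p itself favours a small spread. The Meg3 promoter is shown because this was the non-coding RNA among the probes described and repeated closely. It covers the 250 bases before the first of its listed starts, from RefSeq on GRCm38.p6, chr12:109540746-109540995, plus strand, with capitals on TGACGTCA, the cyclic AMP response element, and on TATAAA or its complement TTTATA, whose matches overlap.
Meg3: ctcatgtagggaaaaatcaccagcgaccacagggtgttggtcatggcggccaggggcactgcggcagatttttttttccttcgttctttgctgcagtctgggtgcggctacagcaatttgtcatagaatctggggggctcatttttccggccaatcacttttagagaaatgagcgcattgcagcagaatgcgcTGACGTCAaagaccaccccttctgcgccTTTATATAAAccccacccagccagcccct
TGACGTCA starts 57 bases before the start site, and TGACGTCA is held by 1.55% of 32851 RefSeq promoters over the same 250 bases. TATAAA starts 25 bases before it, and 12.4% of promoters hold TATAAA on either strand. These matches describe the letters and say nothing of a factor bound there.

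Of the genes of protein synthesis and breakdown, Eif3f, a subunit of translation initiation factor eIF3, lay at -5.53, -3.83 and -3.08. Pa2g4, a growth-regulated RNA-binding protein, lay at -8.35, -2.96 and -3.60, and a second probe, listed on replicate 1 alone, at 0.42. Mrpl12, of the large subunit of the mitochondrial ribosome, lay at -4.50, -3.23 and -2.63. Replicate 1 was the lowest array for all of these genes. Psmd3, of the proteasome's regulatory particle, lay at -3.71, -4.64 and -4.33, and Rnf6, a ubiquitin ligase, at -6.02, -3.73 and -3.59. Above the median were Dnajb9, a co-chaperone of the endoplasmic reticulum (2.72, 2.53 and 2.56), and Birc6, a large inhibitor of apoptosis with ubiquitin-conjugating activity (4.92, 2.27 and 3.58). Dnajb9 was the most even across arrays of the probes described, at 2.60 ± 0.10 (SD, n = 3), and its fitted value was 2.68 ± 0.88 (SE). The SE is wider than the SD because it carries the pooled spread and the shared mice.

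The remaining probes below the median begin with those of neurons. Dlgap1, a scaffold of the postsynaptic density, lay at -3.38, -4.43 and -4.46, and a second probe, listed on replicate 3 alone, at -4.30. Slit1, a repellent ligand of Robo receptors, lay at -4.55, -5.46 and -4.14, and Sema6b, a transmembrane semaphorin, at -3.80, -5.83 and -4.18. Both belong to axon guidance. Elavl3, a neuronal RNA-binding protein, lay at -3.78, -4.87 and -3.91, with a second probe at -0.29 and -3.10 on replicates 1 and 2. Mark2, a kinase that phosphorylates tau and other microtubule-associated proteins, lay at -3.12, -5.13 and -4.40, with a second probe at -0.33 on replicate 1 alone. Hip1r, of clathrin-coated pits, lay at -4.22, -4.13 and -3.55, and Ip6k1, an inositol hexakisphosphate kinase, at -4.04, -5.70 and -4.55. Vav2, a guanine nucleotide exchange factor, lay at -10.82, -4.96 and -4.75, with the 1 extreme array holding much of its fitted value of -7.78 ± 1.30 (SE), and a second probe lay at -0.81 and -0.04 on replicates 1 and 3. Slc29a3, a nucleoside transporter, lay at -6.10, -3.03 and -2.88. Plpp3, a lipid phosphatase, lay at -5.02, -3.89 and -4.45, while its second probe was split, at -1.95 on replicate 1 and 2.40 on replicate 3.

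Of the remaining probes above the median, Sbf1, a myotubularin-related phosphatase homologue, lay at 6.25, 4.85 and 8.28 (fitted 6.16 ± 1.20, SE), but another Sbf1 probe lay at -0.44, -1.41 and -5.71. Wtap, which helps place methyl marks on mRNA, lay at 3.60, 3.10 and 5.89. Cd200, a neuronal surface protein that restrains microglia, lay at 2.87, 2.27 and 3.71. Pam, which amidates neuropeptides, lay at 4.10, 2.02 and 4.56, and a second Pam probe at 3.33, 0.83 and 1.09 was also above on all 3 arrays. Rad18, a ubiquitin ligase of DNA damage tolerance, lay at 7.07, 2.37 and 2.14, with a second probe at 0.33 on replicate 1 alone. Punc, an immunoglobulin superfamily member, lay at 5.30, 1.84 and 1.26, with a second probe at 3.71 on replicate 1 alone. Trit1, a transfer RNA modifying enzyme, lay at 4.11, 1.63 and 1.39, so replicate 1 stood clearly highest for the probes described of Rad18, Punc, Trit1 and Neurod1. Serbp1, an mRNA-binding protein, lay at 2.07, 4.28 and 7.64, and its second probe at -0.73 and -2.67 on replicates 2 and 3. Kctd12b lay at 6.55, 4.93 and 0.65, but its other listed probes lay at -2.07, 0.405 and -0.22 and at 1.62, -0.98 and 1.53. Arrdc4, an arrestin-domain protein, lay at 3.78, 3.66 and 0.95, and Rpgrip1, a ciliary protein, at 4.23, 3.33 and 5.09. Scgb2b2, a secretoglobin, lay at 3.74, 4.51 and 2.28, and Cyp3a13, a cytochrome P450, at 3.09, 3.67 and 1.95. At least 1 of the other comparisons listed fewer than 2 values for Rad18, Birc6, Crebbp, Pam, Kctd12b, Trit1, Scgb2b2, Punc, Arrdc4 and Cyp3a13, and for Smarcd2, Brd2, Klf13, Slit1, Hic2, Sema6b, Mark2, Slc29a3, Elavl3 and Plpp3.

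**Figure D3:**
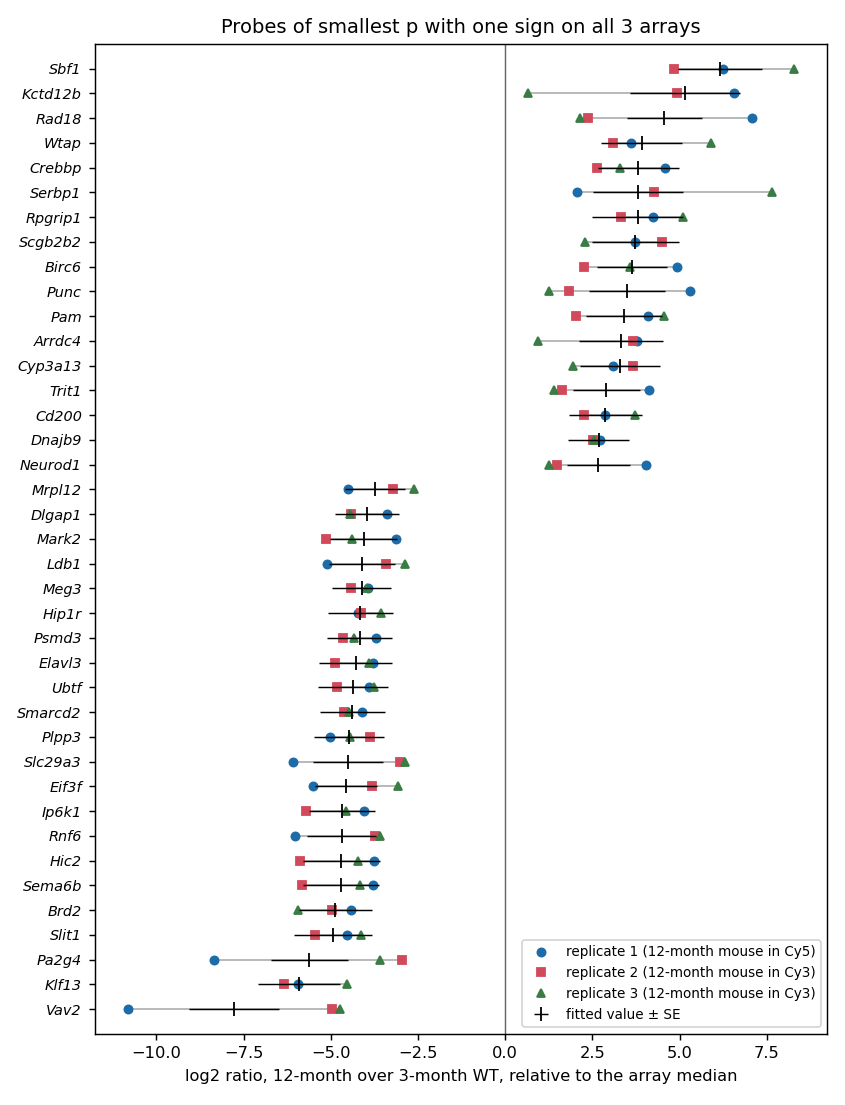
Centred log2 ratios on each array of the 39 probes of smallest p with one sign on all 3 arrays (17 above, 22 below); grey lines span the arrays and black marks are the fitted value ± SE. Points of Dnajb9, Meg3 and Smarcd2 nearly coincide, while those of Vav2, Rad18, Kctd12b and Serbp1 spread over several log2 units.

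Families of genes were described by the mean of each gene over its arrays. Over all 9681 genes the median was -0.06, and 22.4% of genes lay above and 27.5% below the array median on every array with a value (2 or 3). The counts given for each list are to be read against these shares. Collagens, heat shock proteins, axon guidance genes and antioxidant enzymes had 27.6, 26.3, 29.5 and 29.7% below, near the share of all genes. Above lay 17.2, 24.6, 15.9 and 24.3% of them. Of 60 families and marker lists with 5 or more measured genes, 36 had a median below that of all genes. On all 3 arrays 25 lay below the array median and 5 above. Without centring the median of each of the 60 lay above 0, with 1.85 for all genes. Centred on abundant transcripts 16 lay below 0, with 0.51 for all genes. A family's side of 0 is therefore a matter of the centring, and its place relative to all genes is the quantity compared here. In each list 0 genes passed the test.

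**Figure D4:**
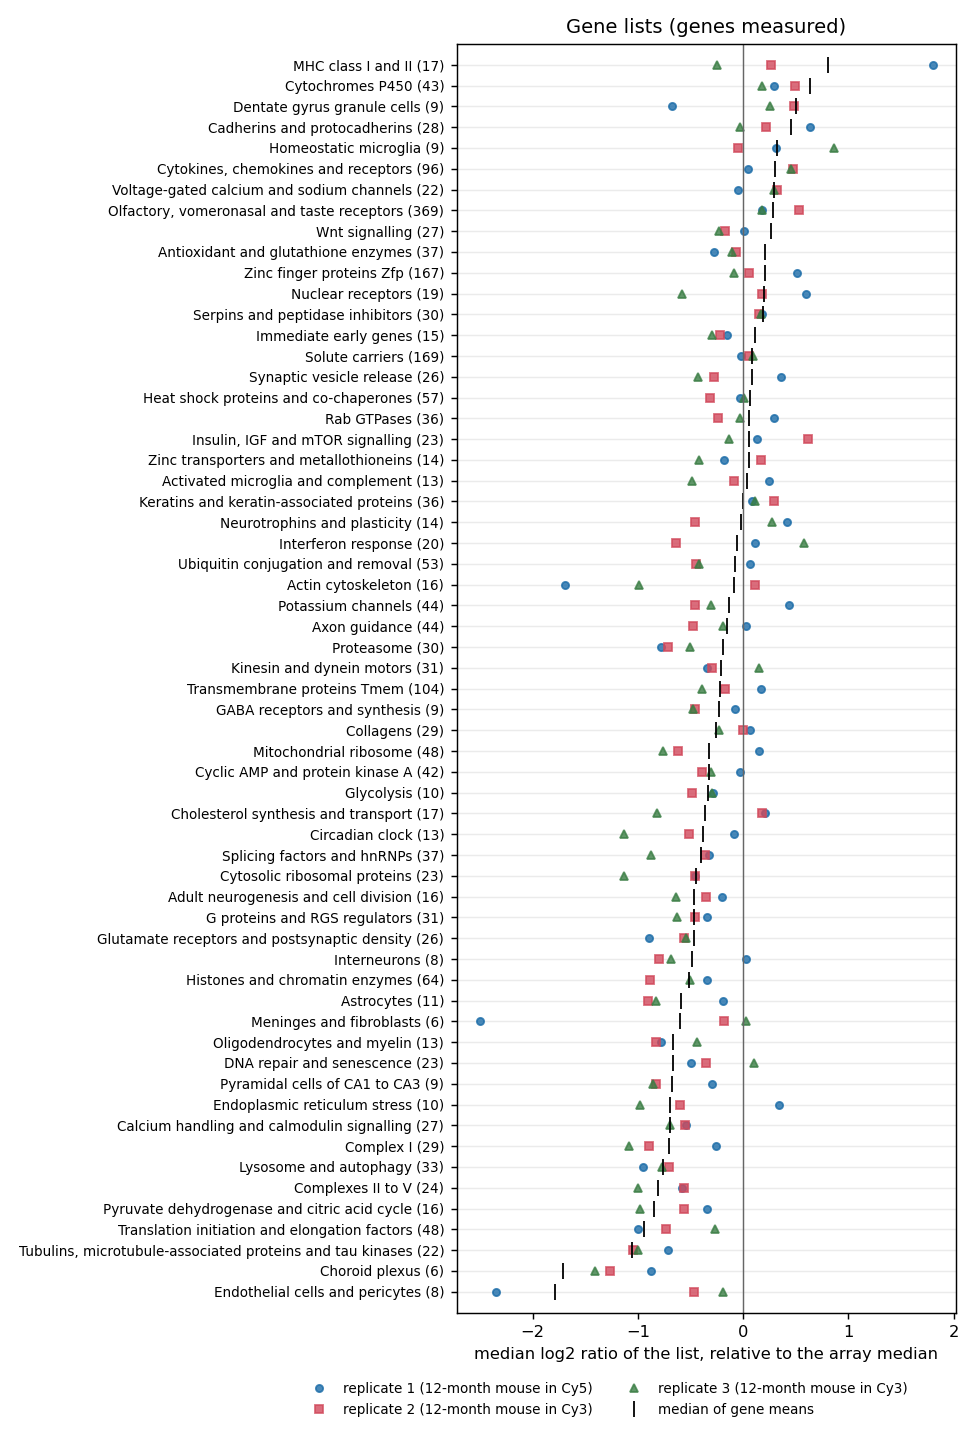
Median centred log2 ratio of each of 60 gene lists on each array, over the genes listed on that array, with the black mark giving the median of gene means over genes with a value on at least 2 arrays (number in brackets). MHC genes are highest at 0.81 and vessel markers lowest at -1.79, and for many lists the 3 arrays straddle 0.

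The mitochondrial and glycolytic lists each had a median below that of all genes. Complex I, which passes electrons from NADH to ubiquinone, had 29 measured genes and a median of -0.71 (1.19 without centring), 13 below and 4 above on every array. Without replicate 1 the median was -1.07, without replicate 2 it was 0.21 and without replicate 3 it was -0.31. Ndufv1, of its catalytic arm, lay at -2.20, -3.58 and -3.07, Ndufa3 at -3.19 and -3.36 on replicates 1 and 2, and Ndufs4 at -3.06 and -3.19 on replicates 2 and 3. Complexes II to V, with 24 genes, had a median of -0.81 (1.00 without centring), 10 below and 2 above, and stayed between -0.81 and -0.64 when single arrays were left out. Within them Uqcr10, of complex III, lay at -3.21, -4.55 and -4.20 and Cox4i1, of cytochrome c oxidase, at -2.30, -3.82 and -3.16. Cyc1, cytochrome c1 of the same complex III, lay the other way at 1.49, 1.94 and 3.11. Subunits of 1 complex were thus apart on every array. Pyruvate dehydrogenase and the citric acid cycle (16 genes) had a median of -0.85 (1.17 without centring), 8 below and 2 above, and -0.32 without replicate 1, Idh3b being at -0.64, -1.10 and -1.13. The mitochondrial ribosome (48 genes) had -0.32, with 19 below and 10 above, and -0.56 without replicate 1 or -0.90 without replicate 3. Mrps12 lay at -2.76, -4.25 and -3.45 and Mrpl28 at -3.34, -4.14 and -2.87. Glycolysis, with 10 genes, had -0.34, or -0.09 and -0.22 without replicates 2 and 3, and Eno2, the neuronal enolase, lay at -3.05 and -2.88 on replicates 1 and 3.

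Translation factors had one of the lowest medians of the larger lists. Their 48 genes had a median of -0.94 (0.85 without centring), with 18 below and 7 above, and a median of -0.45 without replicate 1. The eIF3 subunits Eif3d and Eif3i lay at -4.43, -1.55 and -3.61 and at -2.14, -4.56 and -3.13, beside Eif3f above. Eef1e1 lay high, at 2.26 and 6.46 on replicates 2 and 3. Cytosolic ribosomal proteins (23 genes) had -0.45, with 10 below and 5 above, Rpl27a being at -1.57, -1.06 and -0.69. Without replicate 1, 2 or 3 that median was -0.82, -1.02 or 0.59, over fewer genes each time. The medians of the list on the arrays were -0.46, -0.45 and -1.13. Several of these genes have many processed copies in the genome, whose signal a probe could share.

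Protein quality control was uneven. Lysosome and autophagy genes (33) had a median of -0.76 (1.22 without centring), with 18 below and 3 above on every array, and the median stayed between -0.89 and -0.55 when single arrays were left out. Atp6v1a, of the proton pump that acidifies lysosomes, lay at -2.87, -3.06 and -3.66, Atp6v0a1, of the same pump, at -1.21, -2.64 and -3.04, and Grn, progranulin, at -1.99, -3.38 and -2.97. Atg3, which conjugates lipid to LC3 proteins, lay above at 4.08, 0.94 and 1.53. The proteasome (30 genes) had a median of -0.19 (1.69 without centring), with 14 below and 7 above, and a median of -0.54, -1.54 or -1.58 without replicate 1, 2 or 3. Psmb2, of the core, lay at -2.28, -4.34 and -3.57 and Psmd8, of the lid, at -2.03, -3.50 and -4.29. Heat shock proteins and co-chaperones (57 genes) lay at 0.07 with 15 below and 14 above, and at -0.19 without replicate 1 or -0.03 without replicate 3. In that list Bag1, a partner of Hsp70, lay at -2.82, -3.62 and -4.11 and Dnajb2, a neuronal co-chaperone, at -3.13, -4.20 and -2.46. Ubiquitin-conjugating enzymes and deubiquitinases (53 genes) lay at -0.08, and at -0.23, -0.26 or 0.25 without replicate 1, 2 or 3, with Ube2l3, an E2 enzyme, at -2.67, -3.02 and -3.26.

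Cytoskeletal genes included the lowest of the functional families. Tubulins, microtubule-associated proteins and tau kinases (22 genes) had a median of -1.05 (0.96 without centring), with 11 below and 2 above, and a median of -1.82 without replicate 1, and their medians on the arrays were -0.72, -1.05 and -0.997. Map4, a microtubule stabiliser, lay at -3.65, -3.52 and -4.58, Tubb5, a beta-tubulin, at -2.35, -1.98 and -3.43, and Mapt, the gene of tau, at -0.83, -3.58 and -2.71. Tubulin genes are alike in sequence, so their probes may share signal. Kinesin and dynein motors (31 genes) lay at -0.21, and at -0.37 without replicate 2 or without replicate 3. Dctn2, of the dynactin complex that links dynein to cargo, lay at -2.83, -3.41 and -3.74.

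Synaptic lists held genes on either side of the median. Glutamate receptors and postsynaptic density genes (26) had a median of -0.47 (1.46 without centring), with 11 below and 4 above on every array, and the median was 0.06 without replicate 1, -2.02 without replicate 2 and -0.71 without replicate 3. Gria1, an AMPA receptor subunit, lay at -3.23, -3.92 and -4.24 as the mean of its listed probes, Dlg3, a scaffold, at -2.43, -3.55 and -2.99 and Nlgn2, an adhesion protein of inhibitory synapses, at -2.04, -3.17 and -3.03. Dlg4, the scaffold PSD-95, lay above on every array at 0.93, 0.38 and 1.97, as did Shank3 at 0.56, 0.07 and 0.89. Grin1, the common NMDA receptor subunit, lay near the median at -0.45, 0.19 and 0.30. Synaptic vesicle release genes (26) were split, with 11 above and 10 below on every array and a median of 0.08, which was -0.39, 0.42 and 0.28 without replicates 1, 2 and 3. Snap25, a SNARE protein of vesicle fusion, lay at 3.59, 1.06 and 2.49, whereas Syt1, the calcium sensor of release, lay at -2.29, -2.69 and -3.94. Pclo, of the active zone, lay at 1.25, 1.12 and 0.42. Potassium channels (44 genes) lay at -0.13, and at -1.16, 0.05 or -0.28 without replicate 1, 2 or 3, with Kcna6 at -3.02, -3.14 and -3.02, the narrowest spread of the genes named in that list. Voltage-gated calcium and sodium channels (22 genes) lay at 0.29, with 6 above and 4 below, and at 0.18 without replicate 2 or 0.67 without replicate 3.

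Signalling lists lay on either side of the median. Calcium handling and calmodulin signalling (27 genes) had -0.70 (1.25 without centring), with 12 below and 6 above. Rcan1, an inhibitor of calcineurin, lay at -3.12, -3.82 and -8.09, and Calm3, a calmodulin gene, at -1.91, -3.77 and -2.53. Nrgn, a postsynaptic calmodulin-binding protein, lay at -3.42, -5.69 and -3.87, but it belongs to the list of neurotrophins and plasticity. That list (14 genes) had a median of -0.02, with 4 above and 2 below, and -1.23 to 0.65 with single arrays left out. G proteins and their RGS regulators (31 genes) had -0.47, or -1.30 without replicate 2 and -0.87 without replicate 3. Gnb2 lay at -3.53, -4.24 and -3.59, Gnai2 at -2.73, -3.73 and -3.06, and Rgs4, which speeds GTP hydrolysis, at -2.66, -5.25 and -3.37. Cyclic AMP and protein kinase A genes (42) had -0.33, with 14 below and 9 above, and their median was -0.19, 0.13 and 0.44 without replicates 1, 2 and 3. Within them Adcy2, an adenylyl cyclase, lay at -2.07, -3.55 and -2.85, and Pde7a, a phosphodiesterase that breaks down cyclic AMP, at 4.20, 1.10 and 0.92. Crebbp, also in that list, lay at 1.27, 2.63 and 2.58 as the mean of its listed probes. Wnt signalling (27 genes) had 0.27, with 5 above and 5 below, or 0.07 without replicate 1 and -0.15 without replicate 2. Clock genes (13) had -0.38, or -1.09 without replicate 1 and 0.21 without replicate 3, with Tef, an output transcription factor of the clock, at -2.68, -3.83 and -3.91. The time of day of collection is not given in the sources used here.

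Nuclear, adhesion and lipid families lay on either side of all genes. Histones and chromatin enzymes (64 genes) had a median of -0.51, with 24 below and 13 above, or -0.25 without replicate 2 and -0.12 without replicate 3, and Hdac5, a histone deacetylase, lay at -2.73, -3.08 and -3.08. Splicing factors (37 genes) had -0.40, with 14 below and 8 above, and -0.17, -0.16 and -0.02 without replicates 1, 2 and 3. Of these Prpf19, a scaffold of the spliceosome, lay at -3.02, -3.97 and -3.50 and Sf3b1, which recognises branch points, at -3.33, -3.45 and -2.95. Axon guidance genes (44) had -0.15, with 13 below and 7 above, and -0.25 without replicate 1 or without replicate 3. Robo1, a receptor of Slit ligands, lay at 3.48, 2.29 and 2.35, the opposite side from Slit1 on every array. Cadherins and protocadherins (28 genes) had 0.46, with 10 above and 5 below (0.70 without replicate 1 and 0.87 without replicate 3), and their clustered members share sequence. Collagens (29 genes) had -0.26, with 8 below and 5 above, but 0.13 without replicate 1 and -0.002 without replicate 3. In cholesterol synthesis and transport (17 genes, median -0.37, or -0.20 and -0.11 without replicates 2 and 3), Cyp51 lay at -3.52 and -3.12 on replicates 1 and 2 and Sqle at -4.22 and -5.62 on replicates 1 and 3, both enzymes of the synthetic pathway. Insulin, IGF and mTOR genes (23) had 0.06, with 6 above and 1 below, and -0.52, 0.11 and 0.15 without replicates 1, 2 and 3. Antioxidant and glutathione enzymes (37 genes) had 0.21, or -0.29 without replicate 1, with 11 below and 9 above, and held genes apart on all 3 arrays: Prdx1, a peroxiredoxin, lay at -3.18, -4.37 and -3.76, and Gstp1, a glutathione transferase, at 2.57, 1.46 and 1.59.

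Antigen-presentation and cytokine lists had medians above that of all genes. MHC class I and II genes (17) had the highest median, 0.81 (2.75 without centring), but only 5 were above and 4 below on every array, and the array medians were 1.81, 0.27 and -0.25. Without replicate 1 the median was -0.17, over fewer genes, so the place of the list changed with that array left out. B2m, the subunit shared by MHC class I molecules, lay at 2.74, 1.61 and 1.38 and was above on all 3 arrays. H2-Ob, of the same list, was below on all 3, at -2.17, -0.15 and -4.41 as the mean of its listed probes. Cytokines, chemokines and their receptors (96 genes) had 0.30, with 26 above and 15 below, and 0.22 to 0.45 with single arrays left out. Interferon response genes (20) had -0.06, and 0.24, 0.30 and -3.10 without replicates 1, 2 and 3. Of the interferon genes 6 lay above and 4 below on every array. Mx1, an interferon-induced GTPase, lay at 0.59, 0.51 and 1.44. The genes ranked first by p lay below, Bst2 at -4.585 and -4.176 on replicates 1 and 2 and Psmb9 at -5.64, -3.03 and -0.21. Olfactory, vomeronasal and taste receptors (369 genes) had 0.28 with 112 above and 64 below, and 0.09 without replicate 2. Keratins (36 genes) had -0.002, with 8 above and 5 below. Cytochromes P450 (43 genes) had 0.64 with 16 above and 9 below, and 0.14 without replicate 3. Their list also holds Cyp51 and Cyp46a1, enzymes of cholesterol metabolism in brain, and Cyp46a1 lay at -2.12 and -1.72 on replicates 1 and 2.

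Markers of the cell types gave no single pattern among glia. Homeostatic microglia (9 of 15 markers measured) had a median of 0.32, 2 above and 1 below on every array, and 0.55 without replicate 2. P2ry12, their purinergic receptor, lay at 1.43 and 3.04 on replicates 1 and 2, and Cx3cr1 at 0.62 and 0.42 on replicates 1 and 3. Fcrls, an Fc receptor-like protein of microglia, lay below at -1.96, -0.66 and -1.08. Genes of activated microglia and complement (13 of 22) had 0.04, with 3 above and 3 below, and -0.73 without replicate 1 or -0.01 without replicate 2. Tyrobp, an adaptor of microglial receptors, lay at 0.81, -1.24 and -0.43 and Ctss, cathepsin S, at -0.43, -1.51 and -0.55. Fcer1g, the gamma chain of Fc receptors, lay at 3.69 and 1.94 and Cd14, a receptor for lipopolysaccharide, at 1.81 and 0.59, both on replicates 1 and 2. Astrocyte markers (11 of 16) had -0.59, with 5 below and 2 above, and -0.99 without replicate 1 or -0.15 without replicate 2. Ndrg2 lay at -3.35, -4.77 and -3.47 and Gja1, connexin 43, at -0.87, -1.17 and -0.80, whereas Sox9, a glial transcription factor, lay at 0.92, 0.35 and 1.00. Oligodendrocyte and myelin markers (13 of 21) had -0.66, with 7 below and 1 above. Mbp, myelin basic protein, lay at -0.85, -1.48 and -0.61 and Mobp at -0.59, -0.83 and -0.87, and both were above 0 before centring.

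Neuronal markers were as mixed. CA1 to CA3 pyramidal markers (9 of 17) had -0.68, with 4 below and 0 above, and -1.09 without replicate 3. Fibcd1, a marker of CA1, lay at -4.41, -4.25 and -4.10 and Crym at -0.84, -1.34 and -0.93, while Nptx1, a neuronal pentraxin, lay at 0.93, -0.01 and 0.93. Dentate granule cell markers (9 of 14) had 0.51, with 3 above and 1 below and a median of 0.20 without replicate 1 or -0.19 without replicate 2. Their medians on the arrays were -0.68, 0.485 and 0.25. Tdo2, tryptophan dioxygenase, lay at 1.99, 0.48 and 0.03 and Cdh9, a cadherin, at 0.94 and 0.25 on replicates 1 and 3. The gene below was Btg2, at -2.49, -6.14 and -3.05. Btg2 is in the list of immediate early genes too, so its value does not stand for granule cells alone. A further 5 changed side between arrays, among them Pdzd2 at -0.75, 2.68 and 0.37, Npnt at -0.92, 0.54 and -0.24 and Dsp at 0.99, -0.555 and -0.54. Interneuron markers (8 of 15) had -0.48, or -0.85 without replicate 1 and -0.11 without replicate 2. Sst, somatostatin, lay at -0.23, -0.49 and 0.00, Cck at -0.75, -0.67 and -1.30, and Gad1, which makes GABA, was split at 0.67, -4.09 and -3.12. In the list of adult neurogenesis and cell division (16 genes, median -0.46), Neurod2 lay at -3.25, -6.40 and -3.72 on the side opposite to Neurod1. Dcx, of immature neurons, lay at 0.54, -3.90 and -0.72, so the arrays disagreed on it.

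Vessel and choroid plexus markers gave the lowest medians of the cell type lists with 5 or more measured genes, and meningeal markers were split. Endothelial and pericyte markers (8 of 17) had -1.79 (0.10 without centring), with 5 below and 1 above, and the median was -0.53, -0.19 and -2.28 without replicates 1, 2 and 3. Pdgfrb, a receptor of pericytes, lay at -4.31 and -7.08 on replicates 1 and 2, and Pecam1, an endothelial adhesion protein, lay above at 0.29, 0.24 and 2.80. Choroid plexus markers (6 of 14) had -1.71 (0.30 without centring), with 4 below and 0 above on every array, and a median of -0.41 without replicate 2. Each had a mean below 0, but 2 changed side between arrays. Igf2, made by choroid plexus and meninges, lay at -1.95, -3.03 and -2.84, Ttr, transthyretin, at -1.27 and -1.41 on replicates 2 and 3, and Clic6 at -6.79 and -2.49 on the same arrays. Folr1 was split at -2.82 and 2.00 on replicates 1 and 3, and Cldn2 at 1.045, -1.08 and -0.62. Meningeal markers (6 of 11) had -0.60, with 3 below and 3 above, and 0.04, -3.47 and -2.14 without replicates 1, 2 and 3. Slc6a13, a GABA transporter of meninges, lay at -3.74, -2.97 and -3.20 and Col1a2 at -3, -2.86 and -4.53. Above were Mgp, matrix Gla protein, at 1.76 and 0.70 on replicates 2 and 3, Dcn, the proteoglycan decorin, at 0.91, 0.05 and 0.03, and Col1a1, the partner chain of Col1a2, at 0.02 and 0.26 on replicates 2 and 3. Choroid plexus and meninges border the hippocampus, and the part of dissection in the values was not tested.

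Metallothioneins, small proteins that bind zinc and copper, were a closely matching pair. Mt1 lay at -2.61, -3.33 and -3.47 and Mt2 at -2.35, -4.09 and -2.86, below on all 3 arrays. The genes are close in sequence, so their probes may share signal, and Mt4 was split at -4.74 and 1.97 on replicates 1 and 3. Zinc transporters and metallothioneins together (14 genes) had a median of 0.06, or 0.52 without replicate 1 and -0.92 without replicate 2. The promoters are shown because the genes are neighbours with like values. Each covers the 250 bases before the first of the gene's listed RefSeq starts on GRCm38.p6, plus strand, and any other start was not read. The windows are chr8:94178839-94179088 for Mt1 and chr8:94172368-94172617 for Mt2. Capitals mark the core letters of the metal response element, TGCACNC or TGCGCNC on either strand.
Mt1: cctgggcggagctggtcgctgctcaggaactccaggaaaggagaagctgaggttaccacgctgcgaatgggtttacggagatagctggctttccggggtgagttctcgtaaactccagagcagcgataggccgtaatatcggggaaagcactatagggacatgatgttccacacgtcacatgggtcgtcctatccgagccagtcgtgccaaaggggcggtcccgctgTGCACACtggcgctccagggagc
Mt2: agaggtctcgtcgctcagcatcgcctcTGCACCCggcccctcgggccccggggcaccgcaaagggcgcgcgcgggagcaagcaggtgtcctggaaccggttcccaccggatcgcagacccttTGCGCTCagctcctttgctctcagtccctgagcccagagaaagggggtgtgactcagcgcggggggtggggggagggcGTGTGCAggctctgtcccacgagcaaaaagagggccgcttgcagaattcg
The Mt1 window holds 1 match and the Mt2 window holds 3, and 21.4% of 32851 promoters hold at least 1 and 1.26% at least 3. Bases beyond these windows were not searched, so the counts are not those of the whole promoters. The matches are a description of these windows only.

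Base composition of promoters differed slightly with the side on which genes lay. A RefSeq promoter entry was found for 80.3% of the 9681 genes. Genes below the array median on all 3 arrays had a median of 60.0% G and C (692 genes with a promoter), those above on all 3 had 57.2% (425 genes) and those of mixed sides 58% (1731 genes). For genes below by a log2 of 1 or more on all 3 arrays it was 61.2%, and for those above by as much 56.2%. With the receptor and keratin families left out, genes below on all 3 arrays had 60.4% (684 genes). Those above then had 58% (407 genes), the same as genes of mixed sides. Gene length went the other way, with medians of 20.6 kb below and 26.8 kb above. Over all genes with a promoter the correlation of a gene's value with promoter G and C was -0.050, -0.077 and -0.068 on the 3 arrays, over 5845, 6431 and 6114 genes that share array and base composition. These are weak correlations and are given as a description only.

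Array fits drew also on the other 6 arrays through shared mice and dyes, and with 2 values a gene's fitted ratio could leave its arrays. Reln, for example, lay at -0.93 and -0.53 on replicates 2 and 3 and had a fitted value of -4.06 ± 1.72 (SE). Values on the arrays, not fitted values, are therefore given for families. Sparse probes were common: 7387 of the tested probes left 1 residual degree of freedom.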

How the data were processed

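RNA of single hippocampi was compared on two-colour oligonucleotide arrays. The deposited values are log2 ratios of sample over reference, per the labels. How they were corrected, filtered and normalized is not given in the sources used here. Spot signal was not used here, and precision is limited by the number of arrays. Array centring followed an earlier description of these data, and the members, gene lists and tests were chosen with earlier results of these data known. Gene symbols came from the platform annotation (21020 probes with 1 symbol, 8902 with none), and 2728 of 16675 symbols were updated through RefSeq synonyms (GRCm38.p6). A gene's value is the mean of its listed probes.

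Each probe was fitted over 9 arrays by generalised least squares (limma 3.58.1 in R 4.3.3), with a coefficient for each comparison, a dye term (11183 of 14749 probes could carry it) and covariance from shared mice. The between-mouse to between-array variance ratio was 1.02 on 142 complete probes and 0.115 on 516 complete genes. After eBayes, p-values were adjusted by Benjamini-Hochberg over all features and read at 0.05. The p-values rest on the residual spread over the listed arrays of all comparisons, moderated across features, with the variance ratio held the same for all features. They are therefore no direct measure of the spread among the 2 mice a group. The procedure was also run on simulated normal values with the covariance that the fit assumes and a common spread. Such values cannot show how the p-values behave on these ratios, with their empty stretch and shifted medians. Named probes have 1 symbol, a value and one sign on all 3 arrays and the smallest p, up to 15 in each direction and 10 more among probes too sparse elsewhere. In each list the 6 genes ranked first by p at most, and, for cell types, glia, synapse, immune and growth lists, any gene on all 3 arrays, could be named. Alternatives covered centring, arrays in the fit, covariance, dye term, filters, the replicate block and leaving out each array.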

Additional observations from a re-analysis of the deposited data

How the results depend on the processing

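In every alternative limma called 0 probes and 0 genes. The probes at an unadjusted p under 0.05 numbered 2005 without centring, 1752 with arrays taken as independent, 478 of 4083 listed on all 3 arrays, 432 of 3696 listed on at least 2 arrays of every comparison, and 424 to 782 with single arrays left out. The genes numbered 2403, 586 of 3539 and 559 of 3980 without centring and under the 2 filters, and 633 to 694 with single arrays left out. Fitting probes with the variance ratio of genes gave 1486 probes, and genes with that of probes 655 genes, a choice made after seeing the data. With the replicate number as a block, 416 of 3030 probes and 507 of 3602 genes stood there. The numbers did not pair the arrays: deviations of arrays with the same number correlated at -0.06 to 0.17 (median -0.01, 9 pairs), and those of different number at -0.17 to 0.14. Among probes listed on all 3 arrays r was 0.263 for replicates 1 and 2 and 0.331 for replicates 2 and 3. Of 60 lists, 14 changed side relative to all genes when only genes with 3 values were kept. Without replicate 1, 2 or 3 the numbers were 15, 11 and 10, so the side of many lists depends on the arrays and genes kept. Fewer probes enter under the filters and with an array left out.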
